A study of Homo sapiens with 12 samples.

Results

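The insulin-like growth factor binding proteins IGFBP1 to IGFBP7 were followed across 12 poly(A) RNA-seq libraries of the established human bladder carcinoma cell line T24. The members were taken by gene symbol: all 7 are among the 60603 genes of the deposited count table, and 6 of them are among the 17775 genes that passed the filter on low counts. The series concerns AlissAID, a system that brings untagged proteins of the cell to an auxin-dependent ubiquitin ligase for degradation. The libraries form 4 groups of 3: WT cells without treatment, WT cells with 5-Ad-IAA (an auxin derivative used as the inducer of such systems), NS1 cells without treatment and NS1 cells with 5-Ad-IAA. All groups are T24 cells, the labels do not spell out what the NS1 genotype carries or whether it is 1 clone, and they give WT cells no part of the degradation system. The dose and the duration of treatment are not used here. The family was selected on the measured CPM of IGFBP5, which differed strongly between NS1 and WT cells, so every difference between NS1 and WT cells below is a description without a test, and tests are given for the effect of the inducer.

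IGFBPs are secreted proteins that bind the growth factors IGF1 and IGF2 and keep them from, or deliver them to, the IGF1 receptor. Proteases such as pappalysin cut them and release the ligand. IGFBP1 to IGFBP6 bind IGFs with high affinity, IGFBP6 prefers IGF2, and IGFBP7 is a more distant relative that binds IGFs weakly. Bladder urothelium and its tumours are known to express several members, and the family also acts on cells without IGF.

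Library totals ran from 10593934 to 20266996 counts, and replicate 1 had the highest total in every group. Values are given as normalised CPM, counts scaled to CPM with TMM factors. Of 15 epithelial markers, 8 or 9 had a mean of at least 1 CPM in each group, with a summed level of 4132 to 11171 CPM in single libraries. KRT5, CDH1, TP63, UPK1B and UPK3A, which mark basal or fully differentiated urothelium or epithelial junctions, had at most 3 counts in all 12 libraries. Replicate 1 stood apart from replicates 2 and 3 in most members, in opposite directions in the lines for some of them, and the values without it are given where a result rests on it. Nothing in the labels says that replicates came from separate cultures, so p-values measure the spread between these libraries, which may be technical.

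Measured per length, as normalised CPM per kb of exon, IGFBP4 was the most abundant member in every group. In untreated WT cells IGFBP4 had 371 ± 129 CPM per kb (SD, n = 3), followed by IGFBP7 with 88.1 ± 9.02 and IGFBP6 with 80.9 ± 13.9, and the levels of IGFBP7 and IGFBP6 differed by less than their spread. IGFBP3 with 1.13 ± 0.0618, IGFBP5 with 0.818 ± 0.392 and IGFBP1 with 0.601 ± 0.281 CPM per kb lay far below. The level of IGFBP5 differed from those of IGFBP3 and IGFBP1 by less than the spread of IGFBP5. Treated WT cells had nearly the same levels, with 378 ± 129 for IGFBP4, 88.1 ± 5.61 for IGFBP6 and 87.2 ± 11.2 for IGFBP7. In NS1 cells without inducer IGFBP5 had the third highest mean, with 269 ± 64.4 CPM per kb for IGFBP4, 99.2 ± 30.4 for IGFBP7, 74.4 ± 16.4 for IGFBP5 and 39.5 ± 11.5 for IGFBP6. IGFBP7 and IGFBP5 differed there by less than the spread of IGFBP7. In treated NS1 cells IGFBP4 had 269 ± 84.1, IGFBP7 131 ± 45.8, IGFBP6 84.4 ± 36.4 and IGFBP5 80.6 ± 40.3 CPM per kb, so that IGFBP6 and IGFBP5 could not be ordered.

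As a share of the family's summed CPM per kb, IGFBP5 took 0.169% ± 0.104 (SD, n = 3) in untreated WT cells and 15.5% ± 0.715 in untreated NS1 cells. The share of IGFBP4 was 67.5% ± 5.12 and 55.9% ± 1.19 in the same groups, that of IGFBP6 15.3% ± 3.09 and 8.12% ± 0.378, and that of IGFBP7 16.7% ± 2.84 and 20.3% ± 1.45. The sum itself was 542 ± 144 CPM per kb in untreated WT cells and 483 ± 123 in untreated NS1 cells, a difference smaller than the spread. The bars of untreated NS1 cells differ little from each other although the sum ran from 342 to 559 CPM per kb.

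The genes lie in a pair on chromosome 2, a pair on chromosome 7, and singly on chromosomes 4, 12 and 17. IGFBP2 (ENSG00000115457.10, chromosome 2, 216632828 to 216664436, plus strand) and IGFBP5 (ENSG00000115461.5, chromosome 2, 216672105 to 216695525, minus strand) face each other with their 3′ ends, 7668 bases apart. IGFBP1 (ENSG00000146678.10, chromosome 7, 45888357 to 45893668, plus strand) and IGFBP3 (ENSG00000146674.15, chromosome 7, 45912245 to 45921874, minus strand) lie in the same way, 18576 bases apart. IGFBP7 (ENSG00000163453.11) is at chromosome 4, 57030773 to 57110385, IGFBP6 (ENSG00000167779.9) at chromosome 12, 53097436 to 53102345, and IGFBP4 (ENSG00000141753.7) at chromosome 17, 40443461 to 40457731. Positions are those of GENCODE release 29 on GRCh38, the same assembly as the hg38 that the submitters' processing notes name, and the gene version in the count table is the same only for IGFBP7.

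Promoter windows of 250 bases before a RefSeq start (GRCh38.p14) were found for 5 of the 7 members, not for IGFBP1 and IGFBP7. Of these, 3 are shown, 5′ to 3′ on the strand of the gene: IGFBP5, the member that differs between the lines, its silent neighbour IGFBP2 at the most upstream of its starts, and IGFBP4, the most abundant member. Capitals mark matches, on either strand, to TATAAA as the TATA box, to TTTAAA as a TATA-like run, to TGANTCA as the AP-1 motif, to GGGCGG as the GC box, to CCGGAAGT as an ETS motif and to GCCNNNGGC as the AP-2 motif.
IGFBP5, chr2:216695550-216695799, minus strand: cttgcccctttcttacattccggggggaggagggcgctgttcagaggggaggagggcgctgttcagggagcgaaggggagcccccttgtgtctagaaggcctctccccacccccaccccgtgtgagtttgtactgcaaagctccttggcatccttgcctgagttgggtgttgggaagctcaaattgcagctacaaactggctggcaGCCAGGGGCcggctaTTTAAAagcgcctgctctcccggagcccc
IGFBP2, chr2:216632578-216632827, plus strand: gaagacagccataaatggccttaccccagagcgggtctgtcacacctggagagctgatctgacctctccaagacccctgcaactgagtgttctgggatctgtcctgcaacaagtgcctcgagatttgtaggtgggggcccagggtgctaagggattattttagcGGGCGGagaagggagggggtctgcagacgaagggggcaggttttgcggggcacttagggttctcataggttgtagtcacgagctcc
IGFBP4, chr17:40443200-40443449, plus strand: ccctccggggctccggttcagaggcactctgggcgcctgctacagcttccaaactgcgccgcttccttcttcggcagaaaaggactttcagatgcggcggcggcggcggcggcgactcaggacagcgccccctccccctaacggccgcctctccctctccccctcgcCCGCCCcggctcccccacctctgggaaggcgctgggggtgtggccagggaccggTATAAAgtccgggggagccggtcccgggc
The IGFBP5 window holds the TATA-like run with its first base at -29 and the AP-2 motif at -44, counted back from the start. The IGFBP4 window holds the TATA box at the same distance, -29, and the GC box at -83, and the IGFBP2 window holds the GC box at -86. In the IGFBP6 window, which is not shown, the AP-2 motif was matched at -47 and at -40, overlapping each other, and the GC box at -17. No window of these 5 genes matched the AP-1 or the ETS motif. Of 34943 windows of this length, 10.8% hold the TATA box, 11.3% the TATA-like run, 6.59% the AP-1 motif, 42.5% the GC box, 3.39% the ETS motif and 19.7% the AP-2 motif. GC content was 61.2% with 8 CpG in the IGFBP5 window, 56.8% with 7 CpG in the IGFBP2 window and 71.6% with 24 CpG in the IGFBP4 window, where the median window has 58% and 11 CpG. The IGFBP2 windows at its other starts, not shown, had 69.2% with 22 CpG and 56.4% with 4 CpG, and the former holds the GC box at -49.

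IGFBP5 binds IGFs and also the extracellular matrix through a basic stretch near its carboxyl end. In untreated WT cells it had 2.44, 7.28 and 6.09 CPM in replicates 1 to 3, and 2.09, 9.20 and 7.29 with inducer. In untreated NS1 cells it had 358, 527 and 553 CPM, and 230, 731 and 597 with inducer. The lines did not come near each other: the lowest NS1 library had 230 CPM and the highest WT library 9.20. Between libraries of the same replicate number the untreated NS1 level was 147, 72.3 and 90.9 times the WT level, and with inducer 110, 79.5 and 81.8 times. The fitted log2 difference, NS1 minus WT, was 6.56 (SE 0.59) without and 6.44 (SE 0.59) with inducer, and without replicate 1 it was 6.32 in each. Of 17775 genes, 3 had a larger log2 difference in the untreated lines and 7 with inducer. In bulk RNA a larger share of cells with the transcript and more transcript per cell cannot be told apart.

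**Figure D1:**
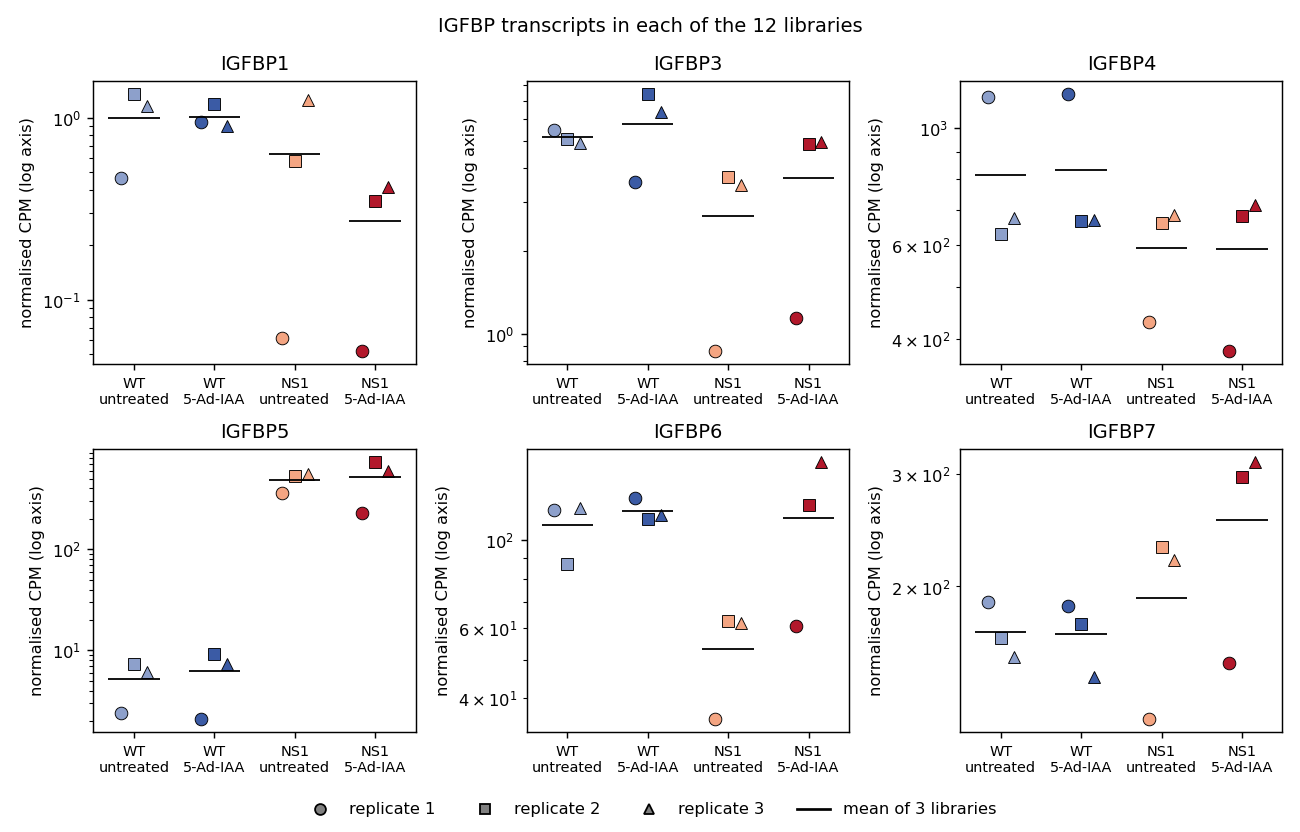
Points are single libraries in normalised CPM on a log axis, shaped by replicate number, for the 6 members that passed the count filter, and lines are means of 3 libraries. IGFBP5 separates the lines, replicate 1 is the lowest library of each NS1 group in every panel, and for IGFBP4 it is the highest WT library.

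The antisense gene ENSG00000236886 (chromosome 2, 216694464 to 216994079, plus strand) begins inside IGFBP5 and shares 298 exon bases with it. It had 18.9 to 47.3 CPM in NS1 and 0 to 0.991 CPM in WT libraries. Its counts were 6.04% to 8.23% of those of IGFBP5 in the 6 NS1 libraries. In the 6 WT libraries they were 0% to 13.6%, from only 0 to 12 counts of the antisense gene. The strand setting of the counting is not stated, so reads of IGFBP5 and of this gene cannot be told apart where they overlap.

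Genes were ranked by the Pearson correlation of log2 CPM with IGFBP5 over the 12 libraries, a description that mostly reflects the step between the lines and shares depth and scaling between points. The 5 highest of 17774 were KLC3 (r = 0.996), FERMT2 (0.996), the antisense gene ENSG00000236886 (0.991), ENSG00000282057 (0.988) and TLL1 (0.988). FERMT2, an adaptor of integrin adhesions, had 65.1 to 74.6 CPM in WT and 100.1 to 118 in NS1 libraries. KLC3, a kinesin light chain, had 6.41 to 8.31 and 14.1 to 16.1 CPM. TLL1, a metalloprotease of the tolloid family, had 0.328 to 1.05 CPM in WT and 10.7 to 21.9 in NS1 libraries. Of these genes, TLL1 and the antisense gene had steps nearest in size to that of IGFBP5, while KLC3 and FERMT2 followed it with much smaller steps.

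IGFBP2, the neighbour of IGFBP5, had 5 counts in all 12 libraries together and at most 1 in any of them. A library can hold up to 3 counts by this rule for detection, which is 0.141 to 0.29 CPM at these depths, and no fold between groups is given. The nearest genes with enough counts beyond the pair were RPL37A and SMARCAL1 on the IGFBP2 side and the pseudogene RPL7L1P9 and TNS1 on the IGFBP5 side. Their log2 differences between the untreated lines, NS1 minus WT, were 0.28 (SE 0.15) for RPL37A, -0.36 (SE 0.13) for SMARCAL1, 0.22 (SE 0.50) for RPL7L1P9 and 2.28 (SE 0.23) for TNS1. TNS1, which encodes the adhesion protein tensin 1, lies 1104063 bases away and had a step in the same direction as IGFBP5.

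IGFBP4, which binds IGFs and restrains them until pappalysin cuts it, was high in all libraries. It had 1142, 630 and 674 CPM in untreated WT cells, 1158, 666 and 670 in WT cells with inducer, 429, 662 and 686 in untreated NS1 cells and 378, 682 and 714 in treated NS1 cells. Replicates 2 and 3 lay between 630 and 714 CPM in all 4 groups, and replicate 1 lay above them in WT and below them in NS1 cells. The fitted difference between the untreated lines was accordingly -0.46 log2 (SE 0.30) with all libraries and 0.05 without replicate 1. With inducer it was -0.49 (SE 0.30) and 0.07. By replicate number the untreated NS1 level was 0.376, 1.05 and 1.02 times the WT level.

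IGFBP3, the main carrier of IGFs in serum, was scarce. It had 5.48, 5.10 and 4.93 CPM in untreated WT cells and 0.864, 3.71 and 3.46 in untreated NS1 cells, where the groups did not overlap. With inducer it had 3.56, 7.42 and 6.39 CPM in WT and 1.14, 4.89 and 4.98 CPM in NS1 cells, and the groups overlapped. The difference between the untreated lines was -0.99 log2 (SE 0.52), and -0.48 without replicate 1. IGFBP1, a carrier that is made mainly in liver and decidua, had 1 to 20 counts per library. It reached 10 counts in 6 of 6 WT and 1 of 6 NS1 libraries, so it passed the filter through the WT libraries and nothing is read from its line difference. Its untreated groups overlapped. It had 0.469 to 1.35 CPM in WT and 0.052 to 1.25 CPM in NS1 libraries.

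IGFBP6 was lower in NS1 than in WT cells without overlap when untreated, and overlapped with WT cells when the inducer was present. It had 119, 87.3 and 120.1 CPM in untreated WT cells and 127, 113 and 115 with inducer. NS1 cells without inducer had 35.4, 62.5 and 61.7 CPM, and in treated NS1 cells 60.7, 123 and 157. The line difference was -1.04 log2 (SE 0.29) without and -0.07 (SE 0.28) with inducer, and without replicate 1 these were -0.74 and 0.29. IGFBP7 had 189, 166 and 155 CPM in untreated WT cells, 186, 175 and 144 with inducer in WT cells, 124, 230 and 220.0 in untreated NS1 cells and 152, 296 and 313 in treated NS1 cells. Its line difference was 0.17 (SE 0.26) without and 0.59 (SE 0.26) with inducer, and 0.49 and 0.93 without replicate 1. Over the 6 members the groups did not overlap for 3 between the untreated lines, namely IGFBP5, IGFBP3 and IGFBP6, where 31% of all genes did not overlap. With inducer they did not overlap for 2, IGFBP5 and IGFBP1, where the share of all genes was 43.4%. These comparisons chose the family and nothing is read from the counts.

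Treated and untreated NS1 cells were compared with edgeR's quasi-likelihood test with Benjamini-Hochberg adjustment over all 17775 genes, and a gene was called at an adjusted p under 0.05. Of the 6 members tested, IGFBP6 was called, where 6.15% of all genes were called, 2.76% higher and 3.39% lower, and the rise was about 2-fold. IGFBP6 changed by 1.09 log2 (SE 0.29, adjusted p 0.0421), and it was higher with inducer in 3 of 3 pairs of the same replicate number, by 0.77, 0.97 and 1.35 log2. The CPM values of the groups overlapped, since treated replicate 1 with 60.7 lay below untreated replicates 2 and 3. The same held for every member: 0 of 6 had groups without overlap, where 27.2% of all genes did. The replicate numbers were taken to pair the treated and untreated libraries of a line, which is an assumption. In the fit that blocks on replicate number inside each line the IGFBP6 rise was 1.04 (SE 0.10, adjusted p 6.19e-06). With only NS1 libraries in the fit IGFBP6 was not called, with an adjusted p of 0.111. That fit also had its own filter and scaling and fewer libraries, and which of these moved the value was not tested. Over this fit and the other settings that kept every replicate the adjusted p ran from 3.23e-12 to 0.111. The lowest value came from the fit without a count filter. There IGFBP4, IGFBP5, IGFBP6 and IGFBP7 all had a standard error near 0.14, so it does not measure the spread of IGFBP6 itself.

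IGFBP6 kept its call in 4 of the 12 fits that left out 1 library, those without replicate 1 of untreated WT, of treated WT or of treated NS1 cells and that without replicate 2 of untreated WT cells. Among the 6 fits without an NS1 library the log2 change ran from 0.79 to 1.40 and the adjusted p from 0.00433 to 0.18. Without replicate 1 in all groups the change was 1.17 (SE 0.15, adjusted p 0.000706). Without replicate 2 it was 1.17 with an adjusted p of 0.323, and without replicate 3 it was 0.91 with 0.402. In these last fits edgeR called 0 genes of the whole table, while the unadjusted p was under 0.05 for 2047 and 2048 genes. Of 6 fibroblast markers, COL1A2, DCN, LUM and PDGFRA had at most 3 counts in all 12 libraries, and the summed level of the list was 8.42 to 21.8 CPM in treated NS1 libraries and 2.53 to 7.73 in the others. PDGFRB made up most of it, with a mean of 11.8 CPM in treated NS1 cells. The 3 endothelial markers summed to 0.0617 to 1.06 CPM in untreated and 1.35 to 4.07 CPM in treated NS1 libraries, and to 0.72 to 3.37 CPM in WT libraries. In untreated and treated NS1 cells the mean of PECAM1 was 0.206 and 1.93 CPM, that of CDH5 0.088 and 0.114 CPM and that of VWF 0.418 and 0.633 CPM. CD14, a marker of monocytes, had 0.432 to 0.872 CPM in untreated and 1.09 to 1.75 CPM in treated NS1 libraries, and 1.04 to 2.71 CPM in WT libraries. The part of these low levels in the IGFBP6 result was not tested.

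**Figure D2:**
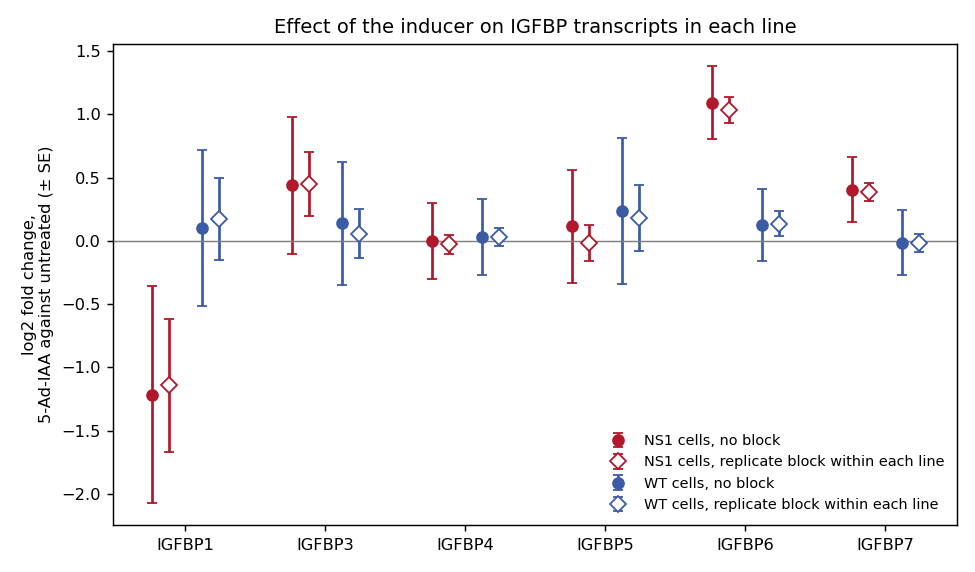
Points are log2 fold changes of treated against untreated cells with their standard errors, filled without and open with a replicate block within each line, colored by line. IGFBP6 at 1.09 in NS1 cells is the highest point, and the block leaves the values of IGFBP6 and IGFBP7 nearly in place while the error bars narrow.

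IGFBP7 was not called without the block, at 0.41 log2 (SE 0.26, adjusted p 0.418). It was higher with inducer in 3 of 3 NS1 pairs, by 0.29, 0.36 and 0.51 log2. With the replicate block within each line it was called, at 0.39 (SE 0.07, adjusted p 0.000951), and over the settings that kept every replicate, the fit of NS1 libraries alone included, the adjusted p ran from that value to 0.507. With this block 2 of 6 members were called, IGFBP6 and IGFBP7, where 25.9% of all genes were called. The antisense gene IGFBP7-AS1 shares 94 exon bases with IGFBP7, and POLR2B, which overlaps its other end, shares 270. IGFBP7-AS1 had a log2 change of 0.49 (SE 0.27, adjusted p 0.347, with the block 0.0013), and POLR2B of -0.01 (SE 0.11, adjusted p 0.964), so reads counted for IGFBP7 and its antisense gene had differences of the same sign.

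The other members had no call in NS1 cells in either fit. IGFBP5 had a log2 difference of 0.11 (SE 0.45, adjusted p 0.928), whose sign turned with the block (-0.015, SE 0.14), and its pairs differed by -0.64, 0.47 and 0.11 log2. IGFBP4 had -0.0028 (SE 0.30, adjusted p 0.998), a value whose sign turned under 3 other settings with all libraries. IGFBP3 had 0.44 (SE 0.54, adjusted p 0.72) with all 3 pairs higher, and IGFBP1 by -1.21 (SE 0.86, adjusted p 0.477) with all 3 pairs lower, from 0.631 ± 0.596 to 0.272 ± 0.193 CPM. Without untreated NS1 replicate 3 the IGFBP1 value was -0.32, and without untreated NS1 replicate 1 it was -1.84. The median over the 6 members was 0.26 log2, against 0.0055 over all genes.

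In WT cells none of the 6 members was called by edgeR, none had an unadjusted p under 0.05 and none was called by DESeq2, where 0% of all genes were called. The log2 differences ran from -0.01 for IGFBP7 to 0.23 (SE 0.58) for IGFBP5. IGFBP6 had 0.12 (SE 0.28) and its pairs 0.09, 0.38 and -0.06. The median over the members was 0.11, against -0.00068 over all genes.

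A different response of the 2 lines to the inducer was tested as the interaction of line and treatment, which uses the libraries of the line comparison too. Without a block 0 of 6 members were called by edgeR, 1 had an unadjusted p under 0.05 and 0 were called by DESeq2, where the shares of all genes were 0.0225%, 12.4% and 2.12%. The member with the unadjusted p under 0.05 was IGFBP6, with an interaction of 0.97 log2 (SE 0.40, adjusted p 0.343). With the replicate block within each line IGFBP6 was called at 0.90 (SE 0.14, adjusted p 0.000809), and IGFBP7 at 0.40 (SE 0.10, adjusted p 0.0146), where 14% of all genes were called. Over the alternatives with all libraries the adjusted p ran from 0.000183 to 0.345 for IGFBP6 and from 0.0146 to 0.771 for IGFBP7. The lowest IGFBP6 value came from the fit without a count filter. Without replicate 1 the IGFBP6 interaction was 1.03 (SE 0.21, adjusted p 0.0258). It was called in 1 of the 3 fits that left out a replicate number, with an adjusted p of up to 0.929. In the fits that left out 1 library it was called in 0 of 12, with an adjusted p from 0.0641 to 0.607.

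The other genes of the IGF system were taken from a list of 20, of which 17 passed the count filter. In NS1 cells 3 rose with inducer and none fell in the unblocked test, where 6.15% of all genes were called, and their median was 0.24 log2 against 0.0055 over all genes. With the replicate block within each line 8 were called higher and 2 lower, where 25.9% of all genes were called, 13% higher and 12.8% lower. Groups did not overlap for 6 of the 17, all higher, where 13.2% of all genes were higher without overlap. In WT cells none of the 17 was called in the edgeR or DESeq2 fit and none had an unadjusted p under 0.05, with a median of -0.02. For the interaction none was called by edgeR without a block, 4 (IRS2, C1R, C1S and CTSD) had an unadjusted p under 0.05, DESeq2 called IRS2, C1R and CTSD, where the shares of all genes were 12.4% and 2.12%, and with the block 5 were called higher and 2 lower, where 14% of all genes were called.

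Among the ligands, IGF1 had no count in any library, which allows up to 3 counts or 0.141 to 0.29 CPM, while IGF2 had 33.6 to 45.1 CPM in WT and 32.7 to 79.5 CPM in NS1 libraries. With inducer IGF2 differed in NS1 cells by -0.03 (SE 0.32, adjusted p 0.973). Of the receptors, IGF1R, which carries the growth signal, went from 75.7, 88.0 and 70.5 to 93.9, 118 and 95.3 CPM in NS1 cells, with no overlap between the groups. Its change was 0.39 (SE 0.17, adjusted p 0.217, with the block 0.0122). INSR, the insulin receptor, had 0.59 (SE 0.33, adjusted p 0.35, with the block 0.061), and IGF2R, which clears IGF2, had 0.19 (SE 0.19, adjusted p 0.632, with the block 0.256). Over the settings that kept every replicate the adjusted p of IGF1R ran from 0.0122 to 0.354.

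The adaptors of the receptors did not move together. IRS2, which passes the signal of the insulin and IGF1 receptors on, rose from 23.3, 34.7 and 28.3 to 35.7, 78.6 and 86.7 CPM in NS1 cells. The change was 1.22 (SE 0.27, adjusted p 0.0213), and it was called in 2 of the 6 fits without an NS1 library, those without untreated replicate 2 or treated replicate 1. With only the NS1 libraries in the fit the adjusted p was 0.0634. Its relative IRS1 went from 84.3, 76.2 and 64.9 to 65.3, 55.2 and 48.5 CPM, a change of -0.41 (SE 0.15, adjusted p 0.137) that was called with the block, with an adjusted p of 0.00226. SHC1 had 0.24 (SE 0.09, adjusted p 0.136, with the block 0.017) and GRB10, an inhibitor of these receptors, -0.15 (SE 0.12, adjusted p 0.551, with the block 0.242).

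**Figure D3:**
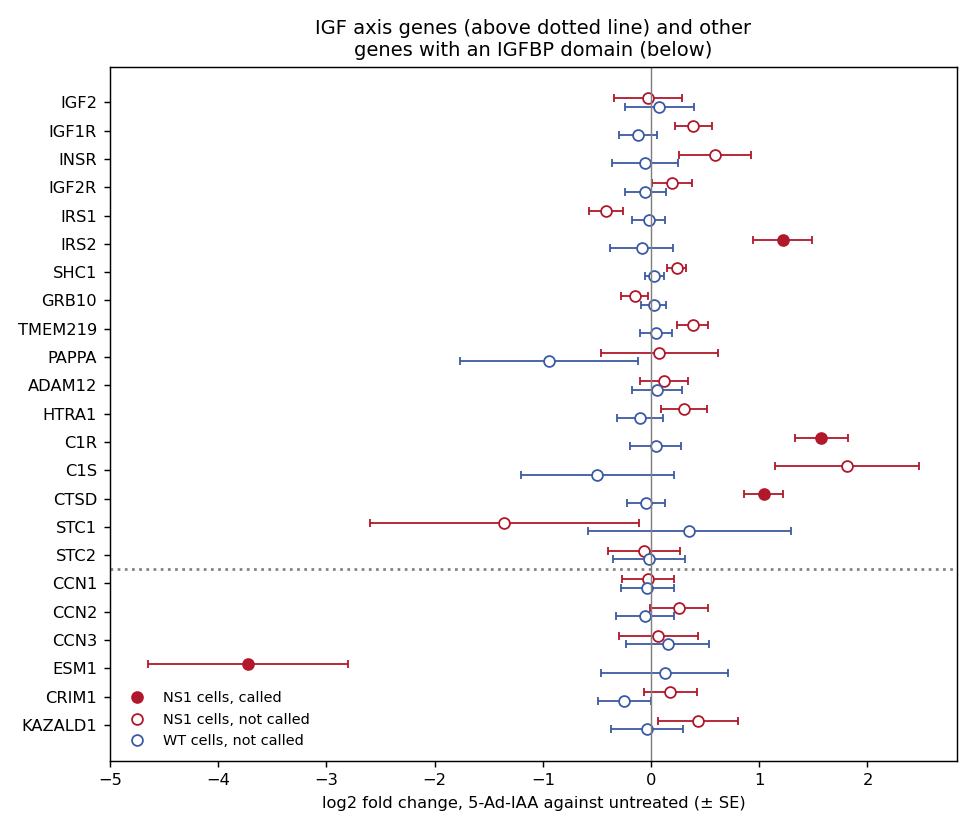
Points are log2 fold changes of treated against untreated cells with standard errors for the 17 genes of the IGF system and the 6 other genes with an IGFBP domain that passed the count filter, filled where called without a block. IRS2, C1R and CTSD are the filled points to the right and ESM1 the filled point to the left, all in NS1 cells. No WT point is filled, and the WT point farthest from 0 is PAPPA at -0.94 (SE 0.82).

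Of 7 listed proteases that cut IGFBPs, 6 were tested and 2 rose in NS1 cells, where 2.76% of all genes were called higher, or 13% with the block. CTSD, the lysosomal cathepsin D, rose from 545, 734 and 768 to 1154, 1436 and 1619 CPM, a change of 1.04 (SE 0.18, adjusted p 0.00658). C1R, a complement protease, rose from 3.77, 3.85 and 3.27 to 7.07, 12.7 and 13.0 CPM, a change of 1.57 (SE 0.24, adjusted p 0.00443). Each of these genes was called in 6 of 6 fits without an NS1 library, while without replicate 2 or without replicate 3 in all groups, where edgeR called no gene of the whole table, the values were 1.49 and 1.37 for C1R and 1.08 and 1.03 for CTSD. C1S, the complement protease that is known to cut IGFBP5, had 0.309, 1.599 and 1.54 CPM untreated and 0.832, 5.24 and 5.98 CPM treated in NS1 cells. Its change of 1.81 (SE 0.67) was not called without the block (adjusted p 0.132) and was called with it (6.45e-05). HTRA1 had 0.30 (SE 0.21, adjusted p 0.473, with the block 0.0275), ADAM12 0.12 (SE 0.22, adjusted p 0.83) and PAPPA, which reached 10 counts in 0 of 6 WT and 5 of 6 NS1 libraries, 0.08 (SE 0.54, adjusted p 0.962). PAPPA2 and IGFALS did not pass the filter. The PAPPA inhibitor STC2 had -0.06 (SE 0.33, adjusted p 0.946), its relative STC1 -1.36 (SE 1.24, adjusted p 0.607, with the block 0.015), and TMEM219, a receptor of IGFBP3, 0.38 (SE 0.15, adjusted p 0.144, with the block 0.0124).

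Other secreted or membrane proteins carry an IGFBP domain without being members. Of 10 listed, 6 passed the count filter, and in NS1 cells 1 fell with inducer and none rose without the block, where 3.39% of all genes were called lower. With the block CCN2 was also called, where 25.9% of all genes were called. ESM1, a proteoglycan of endothelial and tumour cells, went from 10.55, 11.0 and 10.9 to 0.52, 1.13 and 0.913 CPM, a change of -3.73 (SE 0.92, adjusted p 0.0318, with the block 2.56e-08). Its call was lost in each of the 6 fits without an NS1 library, with adjusted p up to 0.102, and the change stayed between -3.97 and -3.39. WT cells had 14.3 to 98.6 CPM of ESM1. CCN1 and CCN2, matricellular proteins, had log2 differences of -0.03 (SE 0.24, adjusted p 0.967) and of 0.26 (SE 0.27, adjusted p 0.666, with the block 0.0219). In the untreated lines, as a description, CCN1 was higher in NS1 cells by 0.90 log2 (SE 0.25), CCN2 by 1.18 (SE 0.27), ADAM12 by 1.40 (SE 0.23) and STC2 by 1.18 (SE 0.34), and GRB10 was lower by -1.07 (SE 0.12), each without overlap of the groups. In all 6 of 17 IGF system genes were higher and 4 lower without overlap, and 2 of 6 domain genes were higher and 2 lower, where 31% of all genes did not overlap. The lower domain genes were ESM1 by -2.51 (SE 0.64) and KAZALD1 by -0.85 (SE 0.36).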

How the data were processed

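Poly(A) RNA of 12 T24 libraries was sequenced, per the labels' protocols. The values are raw gene counts in 1 table that the authors deposited, without normalization. The submitters' processing notes name STAR 2.7.3a, featureCounts 1.6.4 and hg38, and the annotation and strand setting are not given in the sources used here. Reads over overlapping or antisense genes, and reads shared by near-identical copies, could be counted for either gene. All 12 columns matched a library by name, and 60261 of 60603 gene identifiers had a symbol in the name table. The closest libraries of a group had a chi-square over degrees of freedom of 3.03 (genes with at least 20 summed counts), so none was treated as a repeat deposit.

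The filter was filterByExpr with the 4 groups, and kept genes were scaled by TMM and fitted in edgeR 4.0.16 (R 4.3.3) with a mean per group, and contrasts were tested two-sided with glmQLFTest. The standard error is the size of the log2 fold change over the square root of F. Normalised CPM uses the TMM-scaled totals of the genes kept, and CPM per kb divides it by the union of GENCODE 29 exons. Correlations used log2 CPM with a prior count of 2. A group was at the detection floor when each library held at most 3 counts, which covers counting error only. The edgeR step was tested on simulated data for each inducer contrast, where 154 of 200 genes changed 2-fold in NS1 cells were recovered among 17546 genes, with 8 false calls. For the interaction 72 of 200 genes with a 2-fold change were recovered among 17549. The simulated counts were drawn independently from a single mean per gene, without the offset of replicate 1 seen in the data. These rates therefore may not hold for the real libraries.

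Treated and untreated libraries of equal replicate number deviated together from their group means (correlations 0.713, 0.386 and 0.384 for NS1, 0.752, 0.385 and 0.256 for WT). The pairing by replicate number within a line was taken from this check. Deviations from a group mean cancel within the group, so an offset of replicate 1 shared by both groups also gives the other replicates positive correlations. Treated and untreated libraries of unequal replicate number were not compared. The check therefore cannot show how the other replicates pair. Their pairing remains an assumption, on which the calls with the block within each line rest. Across lines not every pair was over 0.1. Alternatives were RLE factors, library totals, other count filters, DESeq2 1.42.0, fits of the compared groups alone, replicate blocks, and left-out libraries.

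The genes named are the members, genes overlapping them, the IGF system list, other genes with an IGFBP domain, the 5 genes most like IGFBP5 and the nearest expressed neighbours of each pair of members. Neighbours of the chromosome 7 pair and most uncalled list genes are not discussed singly. The members and lists were chosen with earlier results of these data known.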

Additional observations from a re-analysis of the deposited data

Results flagged for a closer look

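C1S and ESM1 were singled out because all 3 pairs of libraries moved one way with inducer in NS1 cells and all 3 the other way in WT cells. For C1S the pairs changed by 1.12, 1.63 and 1.87 log2 in NS1 cells and by -0.81, -0.28 and -0.32 in WT cells, and the interaction was 2.31 (SE 0.97). For ESM1 the pairs changed by -4.02, -3.13 and -3.39 log2 in NS1 cells and by 0.26, 0.03 and 0.21 in WT cells, and the interaction was -3.85 (SE 1.11). No p is given here for either difference, since the libraries that chose these genes are those a test would use. The interaction test of the IGF system list above did count C1S. C1S is a low gene, with 5 to 72 counts per library, and its values of 0.309 and 0.832 CPM in replicate 1 of NS1 cells were below those of replicates 2 and 3.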

How the results depend on the processing

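The number of genes called for the inducer in NS1 cells was 1093, and 1801 without a count filter, 2421 with a replicate block and 4596 with the replicate block within each line. Members called there numbered 1, and 0 with only the compared groups in the fit and 2 with the block within each line. IGFBP6 was not called with only the compared groups (1.09), and IGFBP7 was called with the block within each line (0.39). The IGFBP4 change turned to 0.0017 with RLE, 0.0103 with at least 10 counts everywhere and 0.0019 with DESeq2, and that of IGFBP5 to -0.047 and -0.015 with the 2 replicate blocks. The interaction had 4 genes called, and 7 with RLE, 683 without a filter, 33 with at least 10 counts, 634 and 2495 with the blocks and 377 with DESeq2. Its members called were 1 without a filter (IGFBP6, 0.96) and 2 with the block within each line (IGFBP6 0.90, IGFBP7 0.40). For the inducer in NS1 cells the fit without a filter gave IGFBP4, IGFBP5, IGFBP6 and IGFBP7 standard errors all near 0.14. Calls from that fit therefore do not reflect the spread of each of these members. Calls between the untreated lines went from 2222 to 3908 with a replicate block. The block within each line was not used for the line differences, which under it would refer to replicate 1 alone. The block changed no other member's call.

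With a replicate number or a single library left out, genes called ranged from 0 to 2021 for the inducer in NS1 cells, from 0 to 573 for the interaction, from 182 to 3466 between the untreated and from 1632 to 6007 between the treated lines, and members called from 0 to 2 and, for the interaction, from 0 to 1. The inducer effect in NS1 cells ranged from -1.84 to -0.32 for IGFBP1, from -0.027 to 0.92 for IGFBP3, from -0.19 to 0.24 for IGFBP4, from -0.21 to 0.47 for IGFBP5, from 0.79 to 1.40 for IGFBP6 and from 0.17 to 0.67 for IGFBP7. In WT cells it ranged from -0.32 to 0.43 for IGFBP1, from -0.095 to 0.46 for IGFBP3, from -0.29 to 0.35 for IGFBP4, from -0.22 to 0.71 for IGFBP5, from -0.012 to 0.22 for IGFBP6 and from -0.093 to 0.086 for IGFBP7. The interaction ranged from -1.95 to -0.42 for IGFBP1, from -0.16 to 0.79 for IGFBP3, from -0.35 to 0.29 for IGFBP4, from -0.60 to 0.34 for IGFBP5, from 0.66 to 1.27 for IGFBP6 and from 0.18 to 0.68 for IGFBP7. The line difference ranged untreated from -0.70 to 0.048 for IGFBP4 and from -0.0032 to 0.49 for IGFBP7, and with inducer from -0.78 to 0.066 for IGFBP4 and from -0.39 to 0.29 for IGFBP6. The per-length order of the members was that reported in 2 to 4 of the 4 groups. Low counts limit IGFBP1 and IGFBP2, and 3 libraries a group limit every member. The cause of these shifts was not tested.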
